A study of Homo sapiens with 6 samples.

Results

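The protein-coding olfactory receptor genes of chromosome 11 were taken as every gene whose symbol is OR, a family number, a subfamily letter and a member number. In the RefSeq table of GRCh38.p14, the assembly of hg38, 171 genes met this rule. OR9G9, OR8U8 and OR8U9 lie there on other scaffolds and were set aside, which left 168 of the 19821 protein-coding genes placed on chromosomes 1 to 22 and X. Each gene was taken with 10 kb on either side, and the joined windows covered 3.463 Mb. For each library, the listed peaks in these windows were counted as regions, with peaks that share bases merged.

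Olfactory receptors are G protein-coupled receptors of the nasal epithelium that bind odorants and signal through the G protein Golf, adenylyl cyclase and a cyclic nucleotide-gated channel. Each olfactory sensory neuron expresses a single receptor gene, while the rest stay in heterochromatin, and other tissues keep nearly the whole family silent. Class I receptors, of families 51 to 56, resemble those of fish, and class II receptors make up the other families.

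ATAC-seq, which reads open chromatin from the places where Tn5 transposase can insert adapters, had been run on KMS-11, a human multiple myeloma line derived from malignant plasma cells. Both groups have the genotype label WT. The 3 control libraries carry the treatment label LentiV2 and the 3 knockdown libraries the label LentiV2_ATF4g3, and the series describes a knockdown of ATF4, a transcription factor of the stress response. All 3 knockdown libraries carry the same label, and the labels do not say how ATF4 was lowered. The labels number the libraries of each group as biological replicates 1 to 3 without saying that they came from separate cultures, so the p-values measure the spread between these libraries, which may be technical.

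The 6 lists held 220250 to 238246 summits, which merged to 135070 to 171685 regions. The background pileup of a library, the depth of overlapping tags that the peak caller took for its library-wide rate, was 3.19, 2.79 and 3.52 in control replicates 1, 2 and 3. It was 2.51, 2.15 and 2.51 in knockdown replicates 1, 2 and 3, so that every knockdown library was below every control. Peaks at ATF4 covered 4317, 3974 and 4500 bp within 10 kb of the gene in controls, against 2696, 2414 and 3746 bp with knockdown (limma adjusted p = 0.190); accessibility does not check how much ATF4 was left. All 10 plasma cell and myeloma markers, among them SDC1, IRF4 and XBP1, had peaks in all 6 libraries. Of the 10 markers of olfactory sensory neurons, 8 did too, and STOML3 had no covered base in any. The mean covered length per gene was 4087 to 5190 bp for the plasma cell markers and 2569 to 3136 bp for the neuron markers. Of the other marker lists, 5 of 8 erythroid, 4 of 4 B cell, 3 of 3 T cell and 3 of 3 myeloid genes had a peak within 10 kb in all 6 libraries, so a peak in such a window does not mark a cell type; limma called none of these or of the plasma cell markers (at an unadjusted p under 0.05, 2 erythroid, 1 T cell and 1 plasma cell marker were lower and 0 higher). Of the 9 neuron markers tested, limma called 1, ANO2, which was higher and is described with the signalling genes. At an unadjusted p under 0.05, 3 neuron markers were higher and 0 lower. Over all 18739 genes tested, limma called 1.32%, and at that unadjusted p 10.9% were lower and 6.92% higher.

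Listed regions were sparse around the receptor genes of chromosome 11. There were 41, 57 and 46 regions in the 3 controls, against 47, 51 and 44 with knockdown. Per Mb of window this was 11.8, 16.5 and 13.3 regions in controls, against 13.6, 14.7 and 12.7 with knockdown. The windows of the other 1129 protein-coding genes of chromosome 11 held 45.5 to 53.7 regions per Mb. The receptor windows were thus 3.57 times less dense (range over libraries 3.26 to 4.20), lower in 6 of 6 libraries (exact sign-flip permutation test, two-sided, p = 0.0313, the smallest that 6 libraries allow, and 0.0347 adjusted by Benjamini-Hochberg over 10 tests of this kind). These libraries come from 1 cell line, so the test speaks for the libraries and not for other cells.

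Pooled, the 219 olfactory receptor genes of other chromosomes were not as sparse, though their density differed between chromosomes, as given below. Their windows held 51.6, 57.2 and 49.9 regions per Mb in controls, against 67.4, 64.9 and 64.5 with knockdown, which was 4.30 times the density on chromosome 11 (range 3.47 to 5.08, higher in 6 of 6 libraries, exact sign-flip p = 0.0313, adjusted 0.0347). A list of 201 genes of other families that are silent in most tissues (keratin-associated proteins, bitter taste receptors, beta-defensins, PRAME family genes, late cornified envelope genes and vomeronasal receptors) held 38.0 to 60.01 regions per Mb, 3.68 times the density around the chromosome 11 receptors (exact sign-flip p = 0.0313, adjusted 0.0347). Leaving out every region at an annotated start changed little, with 10.97 to 15.6 regions per Mb in the receptor windows against 37.8 to 45.8 around the other genes of chromosome 11.

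**Figure D1:**
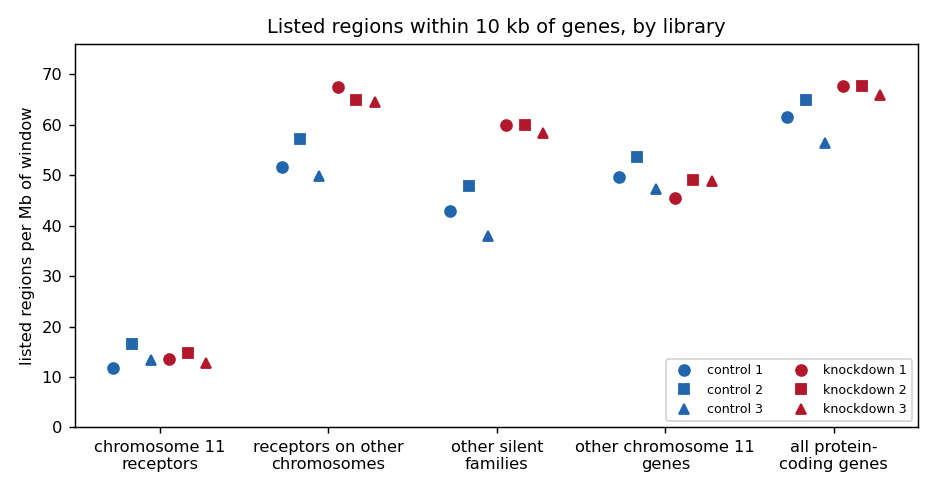
Listed regions per Mb of window (vertical axis) for 5 sets of genes; each point is 1 of the 6 libraries, with controls in blue and knockdown libraries in red. The chromosome 11 receptors sit between 11.8 and 16.5 in every library, below all other sets.

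The density of receptor windows differed between chromosomes. Among the 10 chromosomes with at least 10 receptor genes, chromosome 1 had the highest median, with 79.5 to 119 regions per Mb around 61 genes, and chromosome 7 had 79.1 to 113 around 15 genes. Chromosome 14, with 24 receptor genes, came nearest to chromosome 11, with 11.9 to 25.5 regions per Mb. Chromosome 11 had the lowest density in 3 of the libraries, and 8 of the 9 other chromosomes were above it in the remaining 3. By median, receptor windows were also sparser than the other genes of their chromosome on chromosomes 6, 14, 17 and 19. They held 26.0, 18.7, 20.6 and 30.2 regions per Mb, against 63.9, 52.0, 82.1 and 96.0. Receptor windows of chromosomes 9 and 12 were lower too, while those of chromosomes 1, 3 and 7 were not. Weak regions, those whose highest −log10 q in the library was under 5, numbered 2.31 to 7.51 per Mb on chromosome 11 and 57.8 to 101 per Mb on chromosome 1. The other genes of chromosome 11 also had the lowest densities of weak regions among the 10 chromosomes by median (15.8 per Mb, range 10.96 to 21.3), and the part of the chromosome as a whole in the receptor values was not tested.

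**Figure D2:**
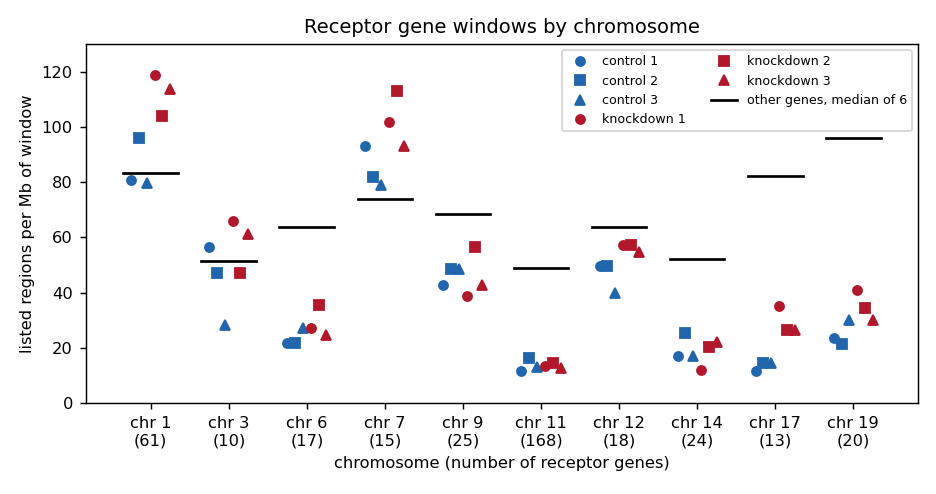
Listed regions per Mb of olfactory receptor windows (points, 1 per library) for each chromosome with at least 10 receptor genes; the horizontal bar is the median over the 6 libraries for the other protein-coding genes of that chromosome. Receptor windows of chromosome 11 lie between 11.8 and 16.5, while those of chromosomes 1 and 7 lie near or above their own chromosome's other genes.

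Within chromosome 11 the receptor genes formed 7 clusters separated by more than 1 Mb. The cluster of 67 genes at 11p15.4 (chr11:4367263-7941708), which surrounds the beta-globin genes, holds all 55 class I receptors and 12 of the 113 class II receptors. It had 14.6 to 23.4 regions per Mb. The 48 genes of the cluster at chr11:54603069-56989843 had 4.25 to 8.51 per Mb, lower than the 11p15.4 cluster in 6 of 6 libraries. The 22 genes at chr11:123753580-124571374 had 9.72 to 19.5 per Mb, and the 21 genes at chr11:58023881-59713845 had 7.67 to 17.3. A pair of genes at chr11:49952391-49982535 had no listed region in any library. OR2AT4, a receptor for synthetic sandalwood odorants that is also found in skin, forms a cluster by itself. Its window held 2 regions in 5 libraries and 3 in knockdown replicate 3.

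Class I windows were denser than class II windows in 6 of 6 libraries, with 13.1 to 21.9 against 9.06 to 13.8 regions per Mb. The 12 class II genes of 11p15.4 had 22.1 to 31.0 per Mb, above the class I genes in 6 of 6 libraries. This rests on 5 to 7 regions per library in 0.226 Mb. They include regions at the start of the zinc finger gene ZNF215, beyond OR2D3, that all 6 libraries listed. The part of those regions in this order was not tested. Windows that also hold a gene of another kind, such as MMP26 or the TRIM genes, had 15.3 to 22.9 regions per Mb (19 genes), against 10.4 to 15.0 for the 149 receptor genes with no such neighbour. All 19 lie in the 11p15.4 cluster, which had 14.6 to 23.4 regions per Mb as a whole. The part of the cluster in this difference was not tested.

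Most receptor genes had no listed peak at all or had one in few libraries. No library listed a region within 10 kb of 88 of the 168 genes (52.4%), while 12.8% of the receptor genes of other chromosomes and 2.44% of all genes other than the chromosome 11 receptors were empty in this way. The first 8 of these in chromosome order are the class I genes OR52B4, OR51F1, OR52R1, OR51F2, OR51T1, OR51A7, OR51G2 and OR51G1. Another 33 genes had a region in 1 library, 20 in 2 to 5 libraries and 27 in all 6. By class, 25 of 55 class I genes and 63 of 113 class II genes had none.

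Annotated start sites were nearly always outside listed regions. RefSeq start windows, 250 bases before to 50 after a start, were matched for 135 of the 168 genes, with 138 starts. Of these starts, 135 were overlapped by no region in any library (97.8%), against 81.7% of 186 starts of receptors on other chromosomes and 30.6% of 22156 starts of all protein-coding genes. The start windows on chromosome 11 were poor in G and C, with a median of 37.0% (24.3 to 57.0%) against 62.3% over all genes, and had a median of 1 CpG against 21. The starts are those annotated, and that of OR2D2, printed below, opens an ATG. Where an entry begins at its coding sequence, the window need not hold the start of transcription. How many entries do so was not counted, and the limit also holds for the motifs.

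The 3 exceptions were OR52N2, OR52K1 and OR8A1, whose start windows are printed here from RefSeq (GRCh38.p14), 5′ to 3′ on the gene's strand, because they are the receptor starts that peaks reached. Capitals mark the bases that the listed regions of every library listing one there have in common.
OR52N2, chr11:5808674-5808973, plus strand: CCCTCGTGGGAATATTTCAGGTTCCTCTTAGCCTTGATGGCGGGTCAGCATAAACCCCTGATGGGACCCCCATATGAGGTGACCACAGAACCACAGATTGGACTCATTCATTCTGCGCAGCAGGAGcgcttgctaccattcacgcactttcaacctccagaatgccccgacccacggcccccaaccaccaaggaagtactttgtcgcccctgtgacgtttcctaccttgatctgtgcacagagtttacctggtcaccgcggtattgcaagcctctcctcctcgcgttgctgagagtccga
OR52K1, chr11:4482396-4482695, plus strand: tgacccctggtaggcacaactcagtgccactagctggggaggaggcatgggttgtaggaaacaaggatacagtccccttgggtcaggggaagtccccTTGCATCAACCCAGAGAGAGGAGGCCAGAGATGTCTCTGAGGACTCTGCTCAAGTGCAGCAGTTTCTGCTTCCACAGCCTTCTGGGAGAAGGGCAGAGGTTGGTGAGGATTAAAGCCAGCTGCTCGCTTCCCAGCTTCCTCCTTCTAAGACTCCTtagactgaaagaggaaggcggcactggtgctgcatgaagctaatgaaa
OR8A1, chr11:124569747-124570046, plus strand: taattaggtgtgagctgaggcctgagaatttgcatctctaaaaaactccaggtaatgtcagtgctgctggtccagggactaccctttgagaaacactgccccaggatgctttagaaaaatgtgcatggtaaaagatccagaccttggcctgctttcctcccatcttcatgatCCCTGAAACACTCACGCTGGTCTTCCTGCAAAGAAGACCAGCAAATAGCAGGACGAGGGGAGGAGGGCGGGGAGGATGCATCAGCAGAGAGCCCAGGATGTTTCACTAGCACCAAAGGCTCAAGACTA

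OR52N2, a class I receptor, was the one member whose start window was overlapped in all 6 libraries. The shared part is 126 bases long, and the window has 14 CpG and 55.3% G and C, well above the median receptor start. The −log10 q of this region was 51.8, 61.9 and 63.2 in controls, against 14.8, 9.35 and 31.6 with knockdown. OR52K1's start was overlapped in knockdown replicates 1 and 2, at −log10 q of 1.61 and 1.48, and OR8A1's in knockdown replicate 2, at 2.09. These values are near the weak end of the lists, which every library fills down to a −log10 p of 2.

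Start windows of a class I and a class II gene without a region in any library are printed for contrast, the first of each in chromosome order. Capitals mark the motif found in each, TAATTA in OR52B4 and TATAAA, on the opposite strand, in OR2D2.
OR52B4, chr11:4368337-4368636, minus strand: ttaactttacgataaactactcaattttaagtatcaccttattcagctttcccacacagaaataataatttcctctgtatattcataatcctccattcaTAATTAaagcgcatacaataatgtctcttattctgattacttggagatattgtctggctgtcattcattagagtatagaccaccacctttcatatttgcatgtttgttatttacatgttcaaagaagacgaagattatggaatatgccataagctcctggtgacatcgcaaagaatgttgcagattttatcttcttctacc
OR2D2, chr11:6892451-6892750, minus strand: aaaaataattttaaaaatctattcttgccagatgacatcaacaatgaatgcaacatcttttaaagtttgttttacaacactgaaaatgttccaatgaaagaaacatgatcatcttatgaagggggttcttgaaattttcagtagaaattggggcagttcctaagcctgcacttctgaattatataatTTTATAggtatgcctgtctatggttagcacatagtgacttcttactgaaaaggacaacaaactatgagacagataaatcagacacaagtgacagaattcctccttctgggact

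Short motifs were searched on both strands of the 138 starts. The homeodomain core TAATTA, which Lhx2 and related regulators of receptor genes bind, was in 34 starts (24.6%), against 20.4% of receptor starts elsewhere and 3.39% of all starts. TATAAA was in 50 (36.2%), against 33.3% and 9.46%. CCCNNGGG, the core of EBF sites, was in 11 (7.97%), against 8.06% and 21.7%. The AP-1 site TGACTCA was in 4 (2.90%), against 5.38% and 4.02%. TTGCATCA, the composite site of ATF4 and C/EBP factors, was in 1 start (0.725%), against 0.538% and 0.677%, and that start is OR52K1, where the match opens the stretch in capitals. None of these motifs contains another. The windows differ in base composition between the sets, and a match is a run of letters and not a bound site.

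Merged over the libraries, the windows held 98 regions. Of these, 45 were listed in 1 library, 12, 5, 4 and 7 in 2, 3, 4 and 5 libraries, and 25 in all 6. Regions of all 6 libraries made up 25.5% of the receptor regions (exact 95% binomial interval 17.2 to 35.3%), 9.79% around receptors of other chromosomes (7.87 to 12.0%), 35.4% around other genes of chromosome 11 (34.2 to 36.6%) and 18.0% of all regions outside the receptor windows. The intervals cover counting error only. The regions listed once were spread unevenly, with 3, 9 and 4 in controls, against 10, 14 and 5 with knockdown, and 27 of the 45 had a −log10 q under 2.

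**Figure D3:**
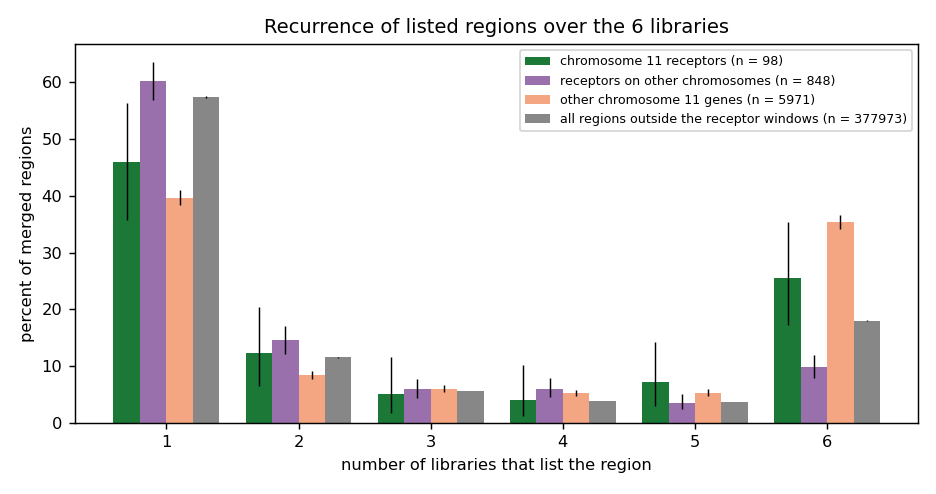
Percent of merged regions (vertical axis) by the number of libraries that list them (horizontal axis) in 4 sets; error bars are exact 95% binomial intervals. Of the chromosome 11 receptor regions, 45.9% were listed in 1 library and 25.5% in all 6, against 60.3% and 9.79% for receptors of other chromosomes.

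The listed receptor regions were not weaker than the rest of their lists. The median −log10 q was 18.4, 17.0 and 10.5 in controls, against 5.76, 4.998 and 10.6 with knockdown. Outside the windows the medians were 7.58, 7.72 and 9.57 in controls, against 2.84, 2.76 and 3.57 with knockdown, lower in each of the 6. Against the regions around other genes of chromosome 11, with medians of 17.0, 18.0, 18.1, 7.40, 7.53 and 9.19 in the same order, the receptor regions were lower in 4 of 6 libraries. Regions with −log10 q under 2 were 4.88, 12.3 and 4.35% of the receptor regions in controls, against 23.4, 21.6 and 11.4% with knockdown. Outside the windows they were 20.1, 24.2 and 16.9% and 36.3, 36.2 and 30.9%. Around the receptors of other chromosomes the medians were 2.09 to 3.03, lower than on chromosome 11 in 6 of 6 libraries.

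The receptor regions were narrower than those outside the windows. Their median width was 308, 262 and 262.5 bp in controls, against 234, 223 and 241.5 bp with knockdown, below the medians outside the windows (325, 302 and 347 bp, then 253, 247 and 262 bp) in 6 of 6 libraries. Around the genes set beside them, medians were in the same range: 260, 255 and 271 bp in controls, then 237, 242 and 257 bp with knockdown, for the receptors of other chromosomes. They were 242, 248 and 268 bp, then 241, 221 and 226 bp, for the other silent families. The caller's local background equalled the library-wide rate at 71.4 to 75% of receptor summits in the controls and 83.6 to 86.0% in the knockdown libraries, against 28.0 to 38.1% of all summits. Raised local background around other peaks raises the pileup that a peak needs, so a receptor summit could be listed at a lower pileup than one in open surroundings. Within each library the lowest listed pileup was the same for receptor summits, those of other chromosome 11 genes and all summits. It was 8, 7 and 9 tags in controls, then 7, 6 and 7 with knockdown. The part of local background in the receptor regions was not tested. Of the 98 merged regions, 44 overlapped a receptor gene itself.

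Of the 168 genes, 27 had a listed region within 10 kb in every library, and 17 of them belong to the 11p15.4 cluster. The strongest of the 25 regions of all 6 libraries lay 3.64 kb beyond OR2D3, at chr11:6925630-6927141, over the start of the zinc finger gene ZNF215. Its −log10 q was 111, 125 and 132 in controls, against 34.2, 54.1 and 82.6 with knockdown. Its pileups were 147, 154 and 171 against 52, 69 and 102 tags. A weaker neighbour at chr11:6927289-6927584 also lies at ZNF215, and the covered length of OR2D3 counts the bases of both.

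OR2AT4, which has no entry in the table of starts, had 2 such regions at distances of 3.37 and 8.22 kb. The nearer, chr11:75100260-75100830, had −log10 q values of 79.8, 114.5 and 81.7 in controls, against 40.8, 57.9 and 34.9 with knockdown. The farther, chr11:75105109-75105889, had 44.1, 74.8 and 85.4, then 20.05, 21.2 and 42.1. The nearest protein-coding gene of another kind, SLCO2B1, lies 50.3 and 45.2 kb away.

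In the class I cluster, OR51E2, known as the prostate-specific G protein-coupled receptor, had a region 1.67 kb from the gene at chr11:4699521-4700473. It is also within reach of OR51C1 and 4.31 kb from MMP26. Its −log10 q was 75.6, 95.9 and 56.8 in controls, against 30.3, 31.5 and 30.4 with knockdown. A region over the low-coordinate end of OR51D1, chr11:4636772-4637520, within reach of the related OR51E1, had 59.5, 70.6 and 36.2, then 30.3, 19.7 and 31.6. The region 3.05 kb from OR52W1, chr11:6203235-6204216, had 31.2, 57.4 and 25.2, then 19.0, 23.1 and 27.7, and was 1.34 kb from C11orf42.

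Recurrent regions overlapped 8 receptor genes themselves: OR51B5, OR51D1, OR52K1, OR52N2, OR5AN1, OR5D3, OR8B3 and OR9G1. In OR52K1 the region chr11:4492989-4493564 lay at the far end of the gene, 10.3 kb from the start printed above, with −log10 q of 80.5, 83.1 and 86.9 in controls, against 12.9, 22.8 and 31.6 with knockdown. In OR5AN1, a receptor for musk odorants, the region chr11:59368167-59369268 had 53.5, 59.5 and 28.8, then 14.8, 35.3 and 19.0. In OR8B3 the region chr11:124402377-124402797 had 26.8, 42.1 and 39.7, then 14.8, 11.3 and 23.4. OR51B5 is annotated over 165335 bases upstream of the beta-globin genes and held 2 such regions, so its length adds to its count. In 17 of the 25 recurrent regions every control had a higher −log10 q than every knockdown library, and in 8 the groups overlapped. Over all 68147 regions listed in 6 libraries, 76.2% had every control higher.

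**Figure D4:**
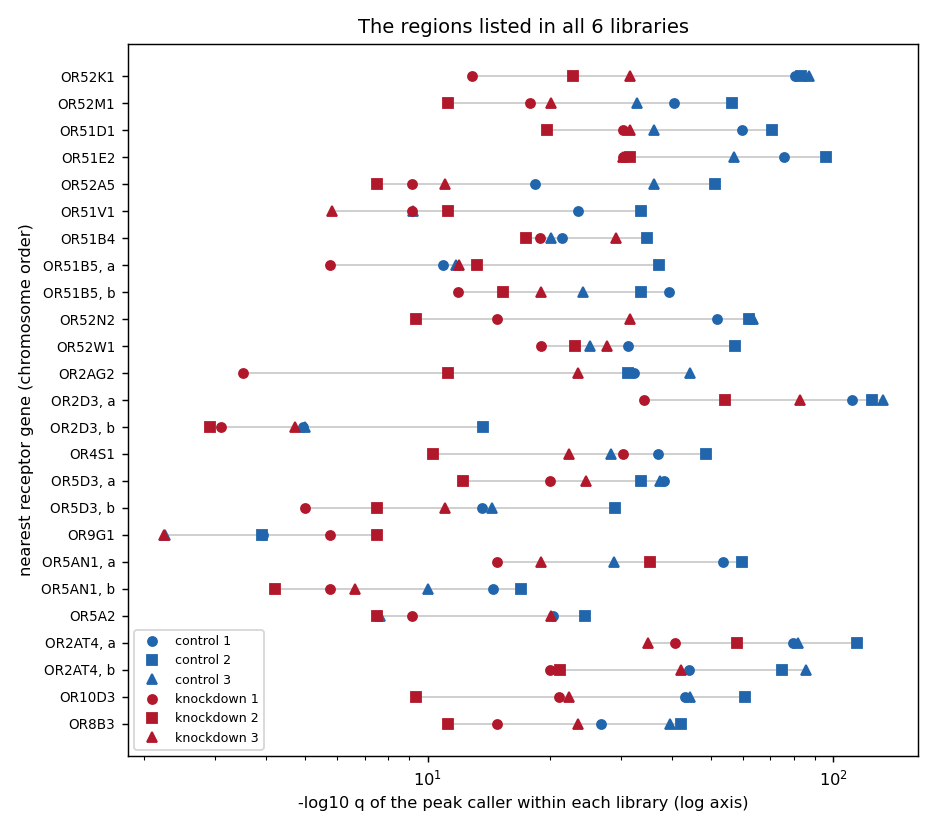
The −log10 q that the peak caller gave in each library (horizontal log axis) to the 25 regions listed in all 6 libraries, each named by its nearest receptor gene, with a and b where a gene has 2. All controls (blue) lie to the right of all knockdown libraries (red) in 17 regions, and the groups overlap in the other 8, among them those of OR9G1, between 2.24 and 7.53, OR51B4, OR51V1, OR52W1, OR4S1 and OR5A2.

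By covered length, the 8 highest receptor genes were OR5AN1, OR2D3, OR52N2, OR51B5, OR2AT4, OR5D3, OR51E2 and OR51C1. Peaks covered 1948, 1678 and 1661 bp around OR5AN1 in controls, against 1231, 1137 and 1627 bp with knockdown. All controls were above all knockdown libraries (limma adjusted p = 0.397). OR52N2 had 1473, 1288 and 1150 bp, then 1133, 753 and 1645 bp, and the groups overlapped. OR51B5 had 1405, 1642 and 1457 bp, then 1285, 1049 and 474 bp, again without overlap (limma adjusted p = 0.330). OR5D3 had 960, 830 and 1010 bp, then 817, 881 and 955 bp, which overlap. In OR2D3, OR2AT4, OR51E2 and OR51C1 the groups overlapped too. These lengths are unscaled, and the covered share of the windows of all protein-coding genes was also lower in every knockdown library.

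Counted at any listed height, the number of receptor regions did not differ between the groups beyond the spread: 48.0 ± 8.19 in controls, against 47.3 ± 3.51 with knockdown (SD, n = 3; exact permutation test, two-sided, p = 1). With only peaks of −log10 q from 5 up, the groups did not overlap, with 33, 40 and 32 regions in controls, against 26, 25 and 31 with knockdown (exact permutation p = 0.1, the smallest possible). All regions of the lists at that height were likewise more numerous in every control, 83450 to 93508 against 61281 to 70770. At any listed height, peaks covered 16859, 18737 and 17345 bp of the receptor windows in controls, against 14809, 14305 and 14480 bp with knockdown. Every control was above every knockdown library, which gives the smallest p that 3 against 3 allows (exact permutation p = 0.1, adjusted 0.3 over 6 tests). The covered share of the receptor windows was 0.487, 0.541 and 0.501%, then 0.428, 0.413 and 0.418%. Over the windows of all protein-coding genes it was 3.17, 3.10 and 3.06%, then 2.81, 2.77 and 2.85%, likewise lower in every knockdown library, as was the background pileup. The part of depth in the receptor values was not tested.

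As a share of all regions of a library, receptor regions made up 0.0273, 0.0353 and 0.0341% in controls, against 0.0276, 0.0297 and 0.0268% with knockdown (exact permutation p = 0.3, adjusted 0.45). The density ratio of receptor windows to those of other chromosome 11 genes was 0.238, 0.307 and 0.281 in controls, against 0.299, 0.300 and 0.260 with knockdown, with overlapping groups (exact permutation p = 0.7, adjusted 0.84). Set against the receptors of other chromosomes, the ratio was 0.229, 0.288 and 0.266, then 0.201, 0.227 and 0.197. Every knockdown library was lower, as listed regions around the other receptors were denser in the knockdown lists while those on chromosome 11 were not (exact permutation p = 0.1, the smallest possible, adjusted 0.15 over 3 such ratios). Against the other silent families the ratio was 0.276, 0.344 and 0.350, then 0.226, 0.245 and 0.218, with the same p.

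Regions listed at a −log10 q of at least 2 in all 3 libraries of one group, with no listed peak in the other, were 3 for the controls and 0 for the knockdown libraries, out of 70 receptor regions at that threshold. Over the genome 1.5% of 216003 such regions were of the controls alone and 0.102% of the knockdown libraries alone. For the receptors the control share was 4.29%, from 3 regions. The first lay 9.23 kb beyond OR52K2 at chr11:4459587-4460072, where −log10 q was 8.39, 19.0 and 4.74 in controls. The second lay in OR52H1 at chr11:5548079-5548340, with 2.65, 7.72 and 4.74. The third lay in OR10A4 at chr11:6876843-6877289, within reach of its neighbour OR10A2, with 6.80, 11.2 and 6.14. The knockdown libraries had the lower background pileup, and its part in these counts was not tested.

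Covered length per gene was tested with limma over all protein-coding genes, as log2 of the length scaled to the library's total plus 200 bp. Of the 168 receptor genes, 39 had a covered base in at least 3 libraries and could be tested. None had an adjusted p under 0.05, where 1.32% of the 18739 genes tested did, and the smallest adjusted p of a receptor gene was 0.0893. At an unadjusted p under 0.05, 4 receptor genes were lower in the knockdown libraries and 0 were higher, where 10.9% of all genes tested were lower and 6.92% were higher. The 4 were OR10A2, OR52H1, OR10A4 and OR52K2, which had no covered base in any knockdown library. They passed the filter only through the controls and therefore had to differ.

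OR10A2 had 265, 490 and 730 bp in controls, against 0 bp with knockdown, with a log2 difference of -1.70 (SE 0.43, limma adjusted p = 0.0893). With no covered base in the knockdown group this value follows the pseudocount, at -3.30 with 50 bp and -0.55 with 1000 bp. Both OR10A4 and OR10A2 draw on the region in OR10A4, so they are not separate evidence. OR52H1 had 474, 455 and 191 bp in the controls (limma adjusted p = 0.135) and OR52K2 had 239, 455 and 186 bp (adjusted p = 0.199). In the other direction the smallest p belonged to OR9G1, with 225, 164 and 300 bp in controls, against 1026, 466 and 150 bp with knockdown (log2 difference 0.70, SE 0.46, adjusted p = 0.480). The groups overlap, and knockdown replicate 3 is the lowest library of all; the difference was 0.25 without knockdown replicate 1 and 1.17 without knockdown replicate 3. OR52K1, OR8D4 and OR51B4 followed, with log2 differences of 0.22, 0.40 and 0.15 and adjusted p of 0.684, 0.767 and 0.858.

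Peak height gave a further view of the 25 recurrent regions. The pileup at the highest summit, divided by the library's background pileup, was compared on the log2 scale over the 68147 regions listed in all 6 libraries, each library centred on its median; this comparison was added after the data were seen. The library medians averaged 4.49 in controls and 3.86 with knockdown on the log2 scale, so centring added 0.64 to every difference. The median difference was -0.54 over all such regions and -0.47 over the receptor regions before centring, and 0.10 and 0.17 after it. A centred difference is thus to be read against 0.10 and not against 0. After centring, 0 of the 25 receptor regions were lower and 2 were higher at a limma adjusted p under 0.05, where 5.61% of all regions were lower and 11.9% higher. Without centring, 9 receptor regions (36%) were lower and 0 higher, where 50% of all regions were lower and 0.622% higher.

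The 2 regions were those near OR51B4 and in OR9G1. The OR51B4 region, chr11:5291269-5291568, lies 9.45 kb from the gene on the side of the beta-globin genes, 21.3 kb from HBE1. Its pileups were 34, 44 and 34 tags in controls, against 29, 26 and 38 with knockdown, or 12.0 ± 3.27 and 12.9 ± 1.94 times background (SD, n = 3 libraries each). The centred log2 difference was 0.76 (SE 0.24, limma adjusted p = 0.0219) and the uncentred one 0.13. Without control replicate 1, control replicate 3 or knockdown replicate 3 its adjusted p rose to 0.0796, 0.0834 and 0.0653.

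The OR9G1 region, chr11:56700345-56700785, had pileups of 14, 13 and 12 tags in controls, against 15, 16 and 10 with knockdown, near the lowest that a library lists, or 4.15 ± 0.66 and 5.80 ± 1.73 times background (SD, n = 3 libraries each). The centred difference was 1.08 (SE 0.30, limma adjusted p = 0.00715) and the uncentred one 0.45. Without knockdown replicate 2 its adjusted p was 0.0621.

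The largest difference in the other direction was in OR52K1, where pileups were 84, 88 and 95 tags in controls, against 23, 31 and 40 with knockdown, or 28.3 ± 2.82 and 13.2 ± 3.55 times background (SD, n = 3 libraries each). The groups did not overlap. Relative to all recurrent regions the log2 difference was -0.50 (SE 0.21, limma adjusted p = 0.0808). It passed, at 0.046, without knockdown replicate 3. With any other library left out its limma adjusted p was 0.0671 to 0.289, and without knockdown replicate 1 the difference was -0.33.

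**Figure D5:**
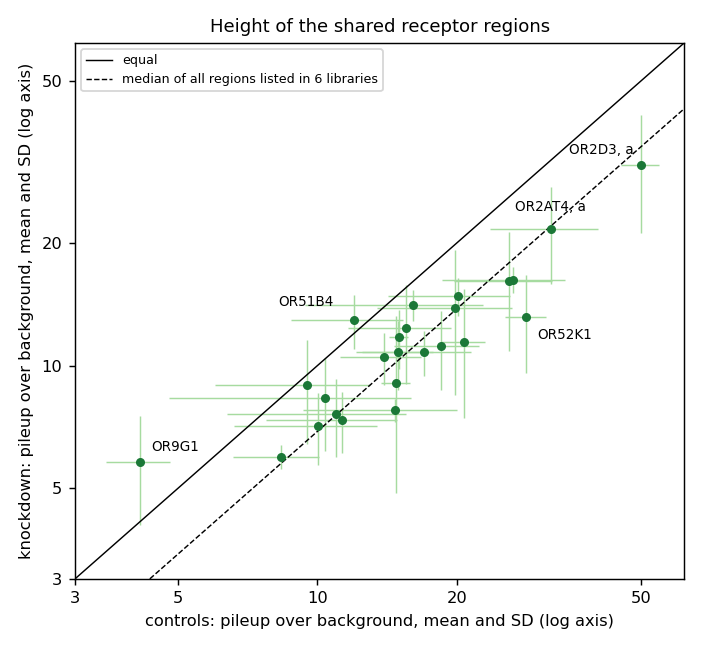
Pileup over library background in the controls (horizontal log axis) and in the knockdown libraries (vertical log axis) for the 25 recurrent receptor regions, as means with SD over 3 libraries; the solid line marks equal values and the dashed line the median shift of all regions listed in 6 libraries. Receptor regions lie on either side of the dashed line, OR9G1 and OR51B4 lie above the solid line, and OR52K1 lies farthest below the dashed one.

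Genes that serve the receptors were given by lists. Of 20 genes of olfactory signalling, 18 had a peak within 10 kb in all 6 libraries and 19 could be tested; 1 was called, with 1 higher and 0 lower, where 1.32% of all genes tested were called, and the median log2 difference was 0.04 against -0.03 for all genes tested. At an unadjusted p under 0.05, 4 were higher and 0 lower, where 6.92% of all genes were higher and 10.9% lower. The 1 was ANO2, the calcium-activated chloride channel of olfactory cilia, with 3716, 3267 and 3418 bp in controls, against 9863, 6348 and 7266 bp with knockdown (log2 difference 1.23, SE 0.14, limma adjusted p = 0.0192). The call was lost with peaks of −log10 q from 2 (0.79, adjusted p = 0.118) and without any 1 of control replicates 1, 2 and 3 (adjusted p = 0.0747, 0.0743 and 0.108). GNAL, the alpha subunit of Golf, had 5068, 5717 and 5142 bp, then 5515, 6286 and 6935 bp (adjusted p = 0.115). PDE1C, a phosphodiesterase of the cilia, had the most covered length of the list, 9557 to 14464 bp (adjusted p = 0.306). OMP, the olfactory marker protein, had 216, 974 and 252 bp, then 427, 344 and 393 bp, and the groups overlapped.

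All 19 regulators of receptor choice and of neuron identity had peaks in all 6 libraries, and 0 were called (limma; at an unadjusted p under 0.05, 1 was lower and 3 higher, where 10.9% and 6.92% of all genes were; median -0.07). EHMT1, a histone methyltransferase, had 6950, 6937 and 7883 bp in controls, against 7097, 6086 and 7097 bp with knockdown. BCL11B, with the smallest p, had 3171, 3230 and 3062 bp, then 5636, 3294 and 6767 bp (limma adjusted p = 0.107), and the groups did not overlap.

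Of 18 neighbours in and beside the 11p15.4 cluster, 15 could be tested (median -0.10). At an unadjusted limma p under 0.05, 2 were lower and 0 higher, where 10.9% and 6.92% of all genes were. After adjustment 1 was called, lower, where 1.32% of all genes tested were called. It was STIM1, the calcium sensor of the endoplasmic reticulum, which also had the most covered length, with 11070, 10120 and 10227 bp in controls, against 7306, 6669 and 7623 bp with knockdown (log2 difference -0.41, SE 0.08, limma adjusted p = 0.0455). The call was lost in 11 of 14 alternatives, with peaks of −log10 q from 2 (-0.26, adjusted p = 0.119), 2 kb windows (0.0572), a pseudocount of 50 bp (0.0502), no filter (0.0635), a replicate block (0.0533) and each library left out in turn (0.0594 to 0.160). The beta-globin genes, silent in plasma cells, were not uniformly closed: HBD windows held 1634, 2074 and 1666 bp, then 984, 1199 and 1310 bp (adjusted p = 0.160), while HBE1 had none in any library.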

How the data were processed

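Peaks were called with MACS2 on hg38, 1 list per library, per the submitters' processing notes. The MACS2 version and settings, the aligner, read filters and any Tn5 shift were not given in the sources used here. The deposited lists give each summit a fold ratio over local background, a −log10 p of at least 2, a −log10 q and a score, and the score was not used. Members, lists and tests were chosen with earlier results of these data known.

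Pileups and backgrounds were recovered, from fold and −log10 p as deposited, by matching a Poisson tail within 0.01, for 100% of summits. Counts and densities were compared by exact permutation tests over libraries, and medians of −log10 q and of width are given without a p. Covered length was fitted with limma 3.58.1 (R 4.3.3; trend and robust settings, Benjamini-Hochberg adjustment) for genes covered in at least 3 of 6 libraries. Same-numbered libraries did not deviate together (r = 0.0007, 0.0384 and 0.0401), so replicate numbers were not used as pairs.

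Named members were the 8 with the most covered length, the 4 with the smallest p in each direction, those near the 6 strongest recurrent regions, near group-specific regions or overlapped by a recurrent region, and the first 8 without a region; of each list, the gene with the most covered length and that with the smallest p. Other genes are named after their values were seen. Window, overlap, threshold, scaling, pseudocount, filter, replicate block and left-out libraries were varied.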

Additional observations from a re-analysis of the deposited data

How the results depend on the processing

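No single library set the low density around the receptor genes: with 1 library left out, its log2 ratio to other chromosome 11 genes was -1.86 to -1.79, at an exact sign-flip p of 0.0625, the smallest that 5 libraries allow. The difference in receptor regions between groups, near 0, was 0 among genes without other neighbours, -7.67 with peaks of −log10 q from 5 (exact permutation p = 0.1, the smallest possible), -6.0 with peaks from 2 (p = 0.3), -7.0 with 50 kb windows (p = 0.6), and ranged from -4.17 to 3.83 with 1 library left out (3.83 without control replicate 2, 1 without knockdown replicate 3). The difference in share turned to 0.00202 percentage points with peaks of −log10 q from 5, and that of the log2 density ratio to -0.00346 with 50 kb windows and to -0.0395 to 0.142 with 1 library left out (-0.0395 without control replicate 1). Regions of the controls alone numbered 1 with presence set at −log10 q of 5, and 5 with 50 kb windows. The share listed in every library was 44.4% and in 1 library 17.8% with peaks of −log10 q from 5, and 35.7 and 32.9% at 2. Of 125 receptor genes tested with 50 kb windows, limma called 1 (OR10A5, adjusted p = 0.043). That window takes in the region in OR10A4 that the controls alone listed, so OR10A5 is not separate evidence. Without scaling limma called 1 of 39 (OR10A2, -1.74, adjusted p = 0.0417). OR10A2 has 0 bp in the knockdown group and passed the filter only through the controls. Under the other settings 0 receptor genes were called. Over all genes limma called 121 lower and 126 higher, but 1313 and 166 without scaling (which moves the median of all genes from -0.03 to -0.14), 538 and 567 with 50 kb windows, 23 and 27 with 2 kb windows, 10 and 16 without the filter, 70 and 81 with a pseudocount of 50 bp, 0 and 0 with peaks of −log10 q from 2, 75 and 113 with a replicate block, and 0 to 52 and 3 to 57 with 1 library left out. Receptor regions called higher by height were 1 to 2 and lower 0 to 1 with 1 library left out; without centring they were 0 and 9, where 424 and 34102 of the 68147 regions were.

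Signs were followed over the settings only for the receptor genes named by covered length or by smallest p. Signs turned for 8 of these, none of them called under any setting. OR51E2 had -0.20 with 2 kb windows, -0.088 with 50 kb, -0.014 with peaks of −log10 q from 2, -0.0091 without scaling and -0.089 to 0.24 with 1 library left out. OR5D3 had -0.077, -0.12 and -0.062 with 2 kb windows, 50 kb windows and no scaling, and -0.033 to 0.11 with 1 library left out. With peaks of −log10 q from 2, OR2AT4 had 0.053, OR2D3 0.006 and OR52N2 0.075. OR51C1 had 0.0021 and OR52K1 -0.20 (from 0.22) with 50 kb windows, and OR5AN1 0.11 (from -0.26) with 2 kb. With 1 library left out, OR2D3 ranged from -0.16 to 0.032, OR51C1 from -0.25 to 0.0081 and OR52N2 from -0.30 to 0.17. The causes were not tested. With a replicate block the group difference in covered length was -3116 bp (exact sign-flip p = 0.25, the smallest of 3 pairs) and limma called 0 receptor genes; of the genes named as called, STIM1 lost its call under the block. The depth of each list limits what is seen, since a region must reach 6 to 9 overlapping tags to be listed.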

Other observations

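A further 7 receptor regions were listed in 5 libraries, and the library without them was a knockdown library in 7 of 7; outside the receptor windows this held for 80.3% of 13800 such regions. The strongest of the 7 lay in OR56A1, a class I receptor, at chr11:6023038-6023353, where −log10 q was 18.4, 33.6 and 16.2 in controls, 2.09 and 10.1 in knockdown replicates 2 and 3, and no listed peak in knockdown replicate 1.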
